A study of Rattus norvegicus with 48 samples.

Results

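The 6 genes described here are known for their response to acute tissue injury and were followed in rat motor cortex around implanted silicon probes: Ccl2 (ENSRNOG00000007159), Cd44 (ENSRNOG00000006094), Timp1 (ENSRNOG00000010208), Lcn2 (ENSRNOG00000013973), Hmox1 (ENSRNOG00000014117) and Hspb1 (ENSRNOG00000023546). They were taken by these Ensembl IDs, 6 of the 18997 distinct genes in the count tables. The symbols came with the list of IDs, since the tables hold IDs only. All 6 had a row in the table of implanted rats, and 4 had one in the table of naive rats, which does not list Ccl2 or Lcn2.

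The animals were male Sprague-Dawley rats, wild type and 12 to 14 weeks old, with a single-shank 'Michigan'-style silicon probe in the primary motor cortex, the region that commands movement. Near tissue lay within 100 µm of the probe and far tissue about 500 µm from it, and both were cut from paraformaldehyde-fixed sections by laser capture microdissection. Far tissue was pooled from 4 smaller pieces around the same implant. Tissue was taken at 24 h (3 rats), 1 week (5 rats) or 6 weeks (4 rats), each time giving 6 near and 6 far libraries. Naive tissue, from 3 rats without a probe, gave 6 libraries at each of the matching positions. A rat with a probe in each hemisphere gave a pair of libraries per distance, and its counts were summed, so the rat was the replicate.

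When a probe pierces cortex it tears vessels and cells, and blood, damaged neurons and glia release signals that local cells answer within hours. Chemokines call in monocytes, matrix receptors and protease inhibitors take part in scar formation, and stress proteins limit damage from heme and misfolded protein. Ccl2 is the chemokine ligand that attracts monocytes through the receptor Ccr2. Cd44 is a surface receptor for hyaluronan found on reactive astrocytes and on blood-derived immune cells. Timp1 inhibits matrix metalloproteinases, and Lcn2 is a secreted carrier of iron-binding siderophores made by neutrophils and reactive astrocytes. Hmox1 breaks down heme, and Hspb1 is a small heat shock chaperone.

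The 250 bases before the annotated start of 3 of these genes are shown, chosen for their results. Cd44 gave the only call of the main edgeR fit, at 24 h Timp1 was counted in near tissue only, and Hspb1 was high in some far tissue. Cd44 was also counted in far tissue, in 6 of 12 rats beside 7 for Hspb1, and far exceeded near in 3 rats for each. The sequences are from RefSeq, build GRCr8, which differs from the build the authors used (Rnor_6.0, per the submitters' processing notes). Each is written 5′ to 3′ on the minus strand, the strand of all 3 genes, and capitals mark matches to a searched motif.
Cd44, chr3:109699425-109699674: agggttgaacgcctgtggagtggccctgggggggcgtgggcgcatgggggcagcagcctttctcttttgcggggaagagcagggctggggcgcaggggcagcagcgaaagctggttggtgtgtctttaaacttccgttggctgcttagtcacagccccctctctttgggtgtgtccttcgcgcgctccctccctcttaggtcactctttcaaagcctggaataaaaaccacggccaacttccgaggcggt
Timp1, chrX:3771123-3771372: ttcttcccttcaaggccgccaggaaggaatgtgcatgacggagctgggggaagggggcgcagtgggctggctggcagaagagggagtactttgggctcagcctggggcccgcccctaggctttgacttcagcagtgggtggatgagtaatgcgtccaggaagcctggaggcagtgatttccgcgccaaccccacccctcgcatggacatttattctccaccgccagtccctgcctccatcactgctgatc
Hspb1, chr12:26432302-26432551: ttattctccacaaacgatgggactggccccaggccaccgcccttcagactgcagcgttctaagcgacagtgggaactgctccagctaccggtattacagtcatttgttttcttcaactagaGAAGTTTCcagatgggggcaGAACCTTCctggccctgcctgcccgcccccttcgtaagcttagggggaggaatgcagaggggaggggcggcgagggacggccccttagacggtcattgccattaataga
The Hspb1 window holds 2 matches to GAANNTTC, the core of the heat shock element, which begin 129 and 109 bases before the start. On either strand 7.23% of 33469 RefSeq promoters of this length hold that motif. AP-1 (TGANTCA, 6.34% of promoters), STAT (TTCNNNGAA, 7.67%) and the TATA box (TATAAA, 12.9%) had no match in these 3 windows or in that of Lcn2, the other member with a RefSeq promoter sequence. These matches describe letters only, and binding was not measured.

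Libraries of implanted rats held 3363892 to 12844185 counts and detected between 3062 and 13028 genes with at least 1 count. In 4 of them fewer than 6000 genes were detected, namely near tissue of rat 29 at 24 h (right hemisphere) and of rats 20 (left) and 23 (right) at 1 week, and far tissue of rat 23 (left) at 1 week. The first of these held 1 count over all 6 members. The 2 most abundant genes took 11.5% to 43.5% of a near library at 24 h and 14.4% to 34.1% of a far one. Values are given as CPM, each rat's count over its library totals scaled to 1000000 counts. Cell type markers could not be matched to the IDs, so the makeup of the tissue was not examined, and in bulk tissue more cells of a type cannot be told apart from more RNA per cell.

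At 24 h Ccl2, Timp1 and Hmox1 were higher in near tissue than in far tissue of every rat, with no overlap between the groups, and Cd44 was higher in every rat with overlapping groups. At 1 week and 6 weeks near tissue of some rats held these RNAs and near tissue of others held no count. Cd44 was the only member that the main edgeR fit called over the 3 times together, where DESeq2 also called Hspb1 and Hmox1. Its mean near level over 12 rats was 55.1 ± 99.6 CPM and its mean far level 13.4 ± 19.6 (SD).

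**Figure D1:**
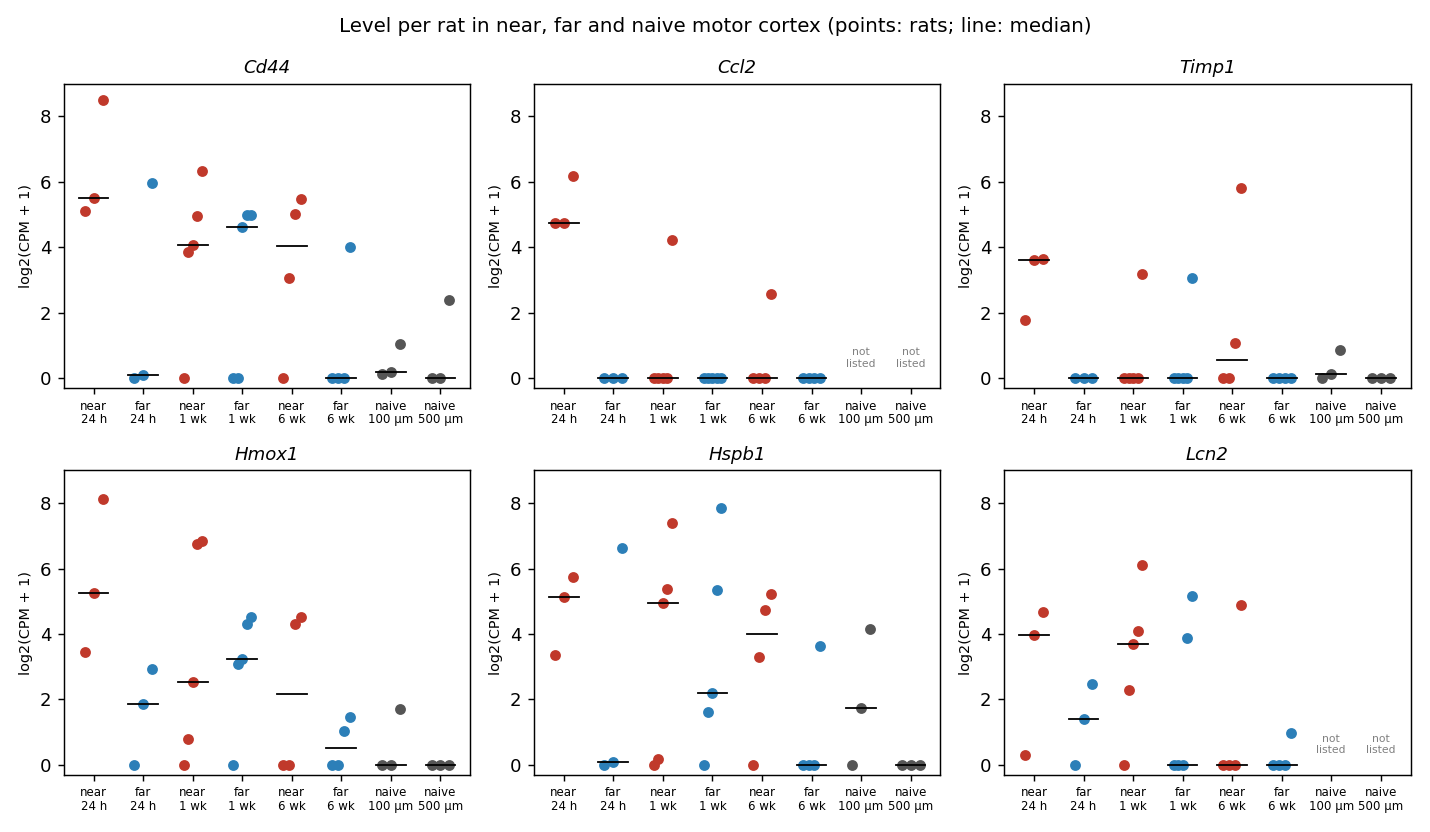
Level of each gene per rat, as log2(CPM + 1) on the y axis, in near (red), far (blue) and naive (grey) tissue by time; points are rats and lines are medians. Ccl2 sits at 0 in far tissue of all 12 rats, and the 3 near values at 24 h lie above the near values of 1 week and 6 weeks.

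Ccl2, the monocyte chemokine, was counted only beside the probe. Near tissue at 24 h held 71.5 CPM in rat 25, 25.9 in rat 29 and 25.6 in rat 30 (mean 41.0 ± 26.4, SD, n = 3), from 914, 549 and 409 counts. At 1 week rat 9 had 17.7 CPM (140 counts), and the other 4 rats had no count. At 6 weeks rat 17 had 4.92 CPM (77 counts), and the other 3 had none. All 18 far libraries held 0 counts. Thus the near rats at 24 h all lay above every near rat of the later times and above every far rat. With the far counts of a time set to a floor of 3 over the group, the pooled near level was at least 560.4-fold higher at 24 h, at least 54.2-fold at 1 week and at least 27.8-fold at 6 weeks, the last 2 resting on 1 rat each. At 24 h rat 25 held 48.8% of the near counts. At 24 h the floor of the far group was 0.0668 CPM, so a level below that was not detectable there. Floors and intervals of this kind cover counting error only. The mean near level at 1 week was 0.0864 times, and at 6 weeks 0.0300 times, that at 24 h.

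Timp1, the metalloproteinase inhibitor, was counted in near tissue of all 3 rats at 24 h, at 11.1 CPM in rat 25, 2.40 in rat 29 and 11.4 in rat 30 (mean 8.30 ± 5.11, SD, n = 3). No far library at 24 h held a Timp1 count, which made near tissue at least 112-fold higher by pooled counts, 48.5% of them from rat 30. At 1 week after implantation the gene was counted near the probe in rat 9 (8.09 CPM) and far from it in rat 22 (7.29 CPM), and nowhere else. The means of that time, 1.62 ± 3.62 near and 1.46 ± 3.26 far (SD, n = 5), therefore rest on 1 rat each. Near exceeded far in 1 rat and far exceeded near in 1, so they show no direction. At 6 weeks near tissue had 54.7 CPM in rat 17, 1.11 in rat 19 and 0 in rats 2 and 11, and far tissue of all 4 rats had 0. Rat 17 held 97.5% of the near counts at 6 weeks, all of them in the library of its right hemisphere, so the bound for that time, at least 317-fold, describes that rat.

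Cd44, the hyaluronan receptor, was counted near the probe in 10 of 12 rats, as many as Hspb1. At 24 h near tissue had 363 CPM in rat 25, 44.8 in rat 29 and 33.7 in rat 30 (mean 147 ± 187, SD, n = 3). Far tissue of the same rats had 61.0, 0 and 0.0663 CPM (mean 20.3 ± 35.2). Near exceeded far in each rat, while the far value of rat 25 lay above the near values of the other 2 rats. Rat 25 held 75.7% of the near counts of that time. At 1 week the near values were 29.97, 13.4, 0, 15.6 and 79.1 CPM in rats 9, 10, 20, 22 and 23, against far values of 0, 23.8, 0, 30.5 and 30.8. Near exceeded far in 2 of these 5 rats, far exceeded near in 2, and the groups overlapped throughout. At 6 weeks near tissue had 7.25 CPM in rat 2, 0 in rat 11, 43.2 in rat 17 and 31.2 in rat 19, and far tissue had 15.2 in rat 2 and 0 in the other 3.

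Hmox1, the heme-degrading enzyme, reached 278 CPM in near tissue of rat 25 at 24 h, with 9.99 in rat 29 and 36.9 in rat 30 (mean 108 ± 147, SD, n = 3). Far tissue of these rats had 6.59, 0 and 2.65 CPM (mean 3.08 ± 3.32), a ratio of means of 35.1. The lowest near value was above the highest far value, and rat 25 held 81.6% of the near counts. At 1 week the near level was split among rats, with 112 CPM in rat 10 and 108 in rat 22, but 4.81 in rat 9, 0.727 in rat 23 and 0 in rat 20. The far level of the same rats ran from 0 in rat 9 to 22.01 in rat 10, with 18.8, 8.43 and 7.44 in rats 22, 20 and 23. The means, 45.1 ± 59.3 near and 11.3 ± 8.97 far (SD, n = 5), overlapped widely. At 6 weeks rats 17 and 19 had 21.9 and 18.8 CPM near the probe and 1.06 and 1.75 far from it, and rats 2 and 11 had 0 at both distances.

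Hspb1, the small heat shock chaperone, had nearly equal means at both distances over the 12 rats, 33.6 ± 45.3 CPM near and 32.1 ± 68.9 far (SD). At 24 h near tissue had 34.1, 9.33 and 52.5 CPM in rats 25, 29 and 30 (mean 32.0 ± 21.7, SD, n = 3), and far tissue had 97.2, 0 and 0.0663 (mean 32.4 ± 56.1). The far mean rested on rat 25, the only rat of that time in which far exceeded near. At 1 week rat 23 was high at both distances, with 166 CPM near and 231 far, and rat 22 was nearly equal, with 40.4 near and 39.5 far. The other near values were 30.1, 0.124 and 0 in rats 9, 10 and 20, and the other far values were 3.61, 0 and 2.08. Of the 2 far libraries of rat 23, 1 was among the 4 with fewer than 6000 genes, and it held 1222 counts of Hspb1 and none of the other members. The right near library of rat 23 was also among these 4, and it held 1861 of that rat's 2052 near counts of Hspb1. At 6 weeks near tissue had 25.5, 0, 36.3 and 8.75 CPM in rats 2, 11, 17 and 19, while far tissue had 11.4 in rat 17 and 0 elsewhere.

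Lcn2, the siderophore carrier, was counted near the probe in 8 of 12 rats. At 24 h it was nearly missing from near tissue of rat 25 (0.235 CPM, 3 counts), the rat with the highest Cd44, Ccl2 and Hmox1, and was at 14.8 in rat 29 and 24.2 in rat 30. Far tissue of these rats had 1.66, 0 and 4.57 CPM, so far exceeded near in rat 25. At 1 week near tissue had 68.0 CPM in rat 22, 16.2 in rat 9, 12.0 in rat 23, 3.86 in rat 20 and 0 in rat 10, and far tissue had 34.5 in rat 22, 13.6 in rat 23 and 0 in the other 3. The means were 20.0 ± 27.6 near and 9.63 ± 15.1 far (SD, n = 5). Near exceeded far in 3 of these rats and far exceeded near in 1, and edgeR with the rat as a block did not call Lcn2 (adjusted p = 0.964). At 6 weeks rat 17 had 28.3 CPM near the probe and rat 11 had 0.972 far from it (8 counts), with 0 in every other rat at either distance.

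**Figure D2:**
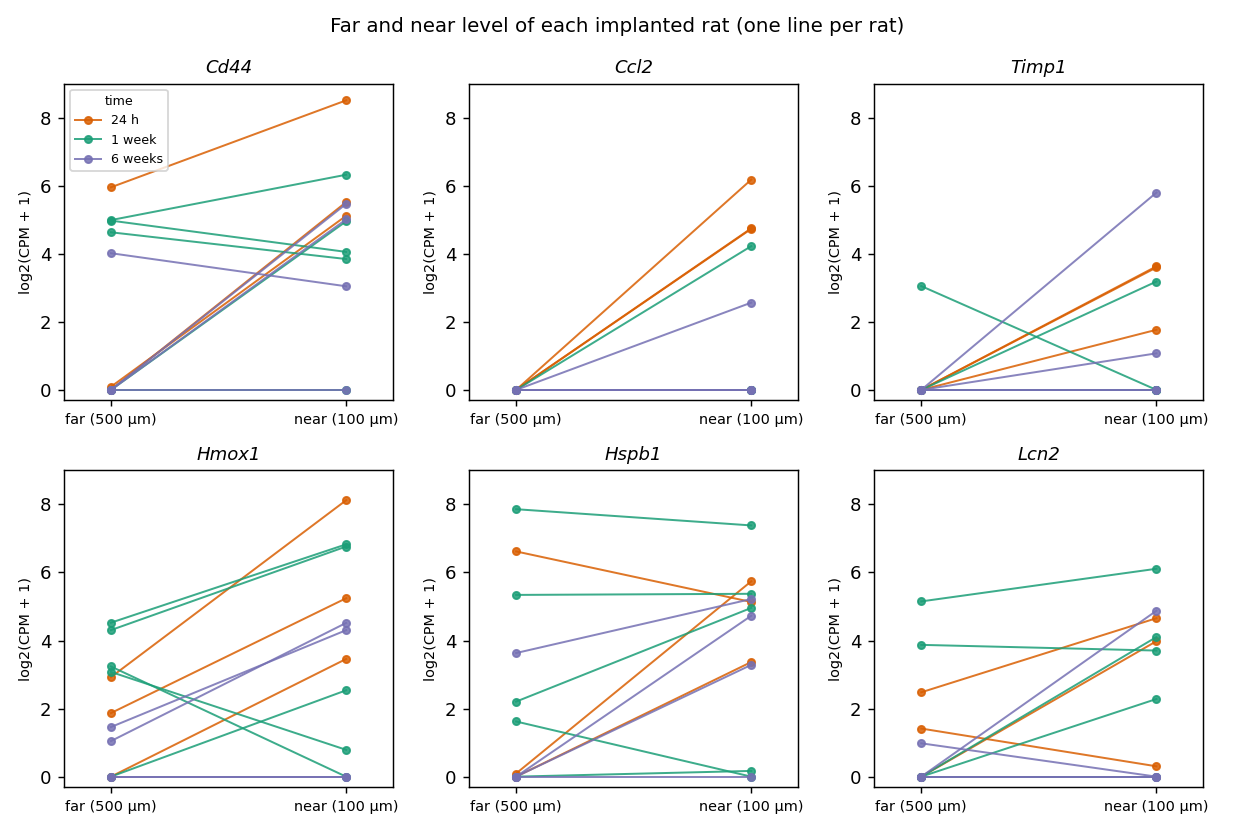
Far and near level of each implanted rat, as log2(CPM + 1), joined by 1 line per rat and coloured by time. All lines of Ccl2 start at 0 in far tissue, whereas each of the other genes holds at least 1 line that falls towards the probe as well as lines that rise.

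Across all 12 implanted rats near exceeded far in 8 rats for Hmox1 and Hspb1, 7 for Cd44, 6 for Timp1 and Lcn2 and 5 for Ccl2. Far exceeded near in 3 rats for Cd44, Hspb1 and Lcn2, 2 for Hmox1, 1 for Timp1 and 0 for Ccl2, and the remaining rats had no count at either distance. Of the 14399 genes tested, 7.8% were higher near the probe in at least 8 rats, 15.5% in at least 7, 27.1% in at least 6 and 43.5% in at least 5. Rat by rat at 24 h, 4 of the 6 members (Ccl2, Timp1, Hmox1 and Cd44) were higher near the probe in all 3 rats, against 9.13% of all genes tested. For 3 of the 6 (Ccl2, Timp1 and Hmox1) the near and far rats did not overlap, against 3.31% of all genes. Ccl2 was counted in 0 and Timp1 in 1 of 18 far libraries, so both passed the low-count filter through near tissue, where they are high, and the shares of all genes give no support for them. At 1 week and 6 weeks 0 of 6 members were higher near the probe in every rat, against 1.21% and 3.46% of all genes, and for 0 of 6 did the near rats all lie above the far rats, against 0.278% and 1.18%. In the other direction, 0 of 6 members were lower near the probe in every rat at 24 h, 1 week or 6 weeks, where 15.6%, 5.83% and 10.7% of all genes were. The near rats all lay below the far rats for 0 of 6 members at each time, and for 6.97%, 1.04% and 4.64% of all genes.

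Near and far tissue were compared with edgeR's quasi-likelihood test, with the rat as a block. A call means a p-value below 0.05 after Benjamini-Hochberg adjustment over all genes. All 6 members passed edgeR's filter on low counts there. The ± of a fitted value is an approximate SE from the test's F statistic, not the spread between rats. At 24 h 0 of 6 members were called, where 0.132% of all genes were, and 4 had an unadjusted p under 0.05. Cd44 had a fitted log2 fold change of 7.91 ± 2.79 (approximate SE, adjusted p = 0.586), Hspb1 one of 7.27 ± 3.35 and Hmox1 one of 5.75 ± 2.42 (both adjusted p = 1). Without the block the fitted value was 2.92 for Cd44 and 0.26 for Hspb1. With each rat left out, it ran from 5.37 (without rat 29) to 10.31 (without rat 25) for Cd44 and from 3.12 (without rat 30) to 9.79 (without rat 25) for Hspb1. The fourth was Ccl2 (edgeR adjusted p = 1), for which the bound above stands in place of a fitted fold. DESeq2 called Cd44, Hspb1 and Hmox1 at 24 h (adjusted p = 0.0129, 0.0129 and 0.0118), and called 3.67% of all genes. For Hspb1 the fitted value and the ratio of the means, 0.986, differ in direction; near exceeded far in 2 of the 3 rats, and the far mean rested on rat 25.

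At 1 week 0 of 6 members were called by edgeR (0.396% of all genes) or by DESeq2 (9.06%), and 0 had an unadjusted p under 0.05. The fitted log2 fold changes of that time ran from 0.01 for Timp1 to 3.38 ± 3.27 for Lcn2. At 6 weeks edgeR called 0 of 6 (0.0764% of all genes). Hspb1 (6.99 ± 2.61) and Cd44 (8.36 ± 3.35) had an unadjusted edgeR p under 0.05 and an adjusted p of 1. These values fell to 2.71 and 2.88 without the block, to 4.36 for Hspb1 without rat 2 and to 3.34 for Cd44 without rat 19. DESeq2 called 1 member at 6 weeks, Cd44 (adjusted p = 0.000206), where it called 2.29% of all genes. Once rat 2 was left out, edgeR called Cd44 at 6 weeks (adjusted p = 0.0157). Rat 2 held 100% of the far counts of Cd44 at that time. Without rat 2 the gene could only come out higher near the probe, so that call gives no support.

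Over the mean of the 3 times edgeR called 1 of 6 members, Cd44, where 1.51% of all genes were called and 0.382% were called as higher near the probe. Its fitted log2 fold change was 5.78 ± 1.56 (adjusted p = 0.0191), and near exceeded far in 7 of 12 rats. The ratios of its means, as folds and not log2, were 7.23 at 24 h, 1.62 at 1 week and 5.37 at 6 weeks. At 24 h and 6 weeks these lie far below the folds that the fitted log2 values stand for. Cd44 was counted in far tissue of 6 of 12 rats, so the size of its fitted change is uncertain. The call was lost when rat 17, 19, 23, 25, 29 or 30 was left out (adjusted p = 0.336, 0.320, 0.0539, 0.131, 0.180 and 0.108), which are rats of all 3 times. It was also lost without the rat as a block (2.20, adjusted p = 0.708). Hspb1 came next with 4.85 ± 1.503 (adjusted p = 0.0747), or 0.93 without the block, then Hmox1 with 3.52 ± 1.40 (adjusted p = 0.331). Ccl2 (adjusted p = 0.432), Timp1 (0.820) and Lcn2 (1) did not pass. DESeq2 called Cd44, Hspb1 and Hmox1 over the mean of the 3 times, 3 of 6 members, where it called 8.14% of all genes. Without the 4 libraries of few genes edgeR called the same 3 members (adjusted p = 0.000477, 0.0141 and 0.0184). This setting also took rat 20 out of the fit, since its only near library was dropped. For rat 23 it set left near tissue against right far tissue. Leaving out rat 20 alone gave the same 3 edgeR calls (adjusted p = 0.000296, 0.00183 and 0.0192), so the setting does not show an effect of the few-gene libraries as such.

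**Figure D3:**
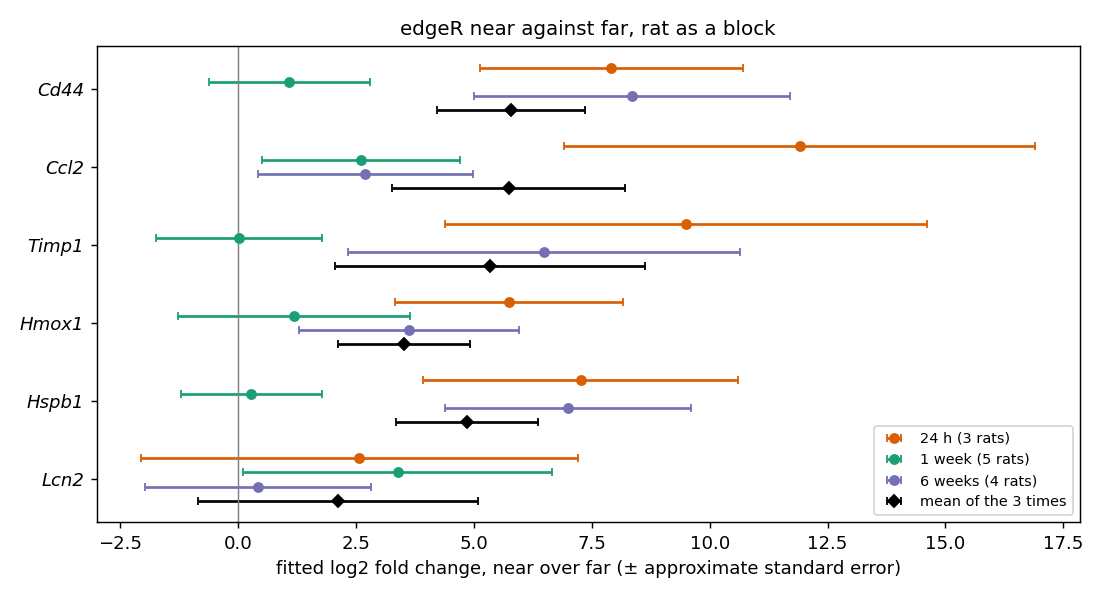
Fitted edgeR log2 fold change of near over far tissue on the x axis, with approximate standard errors, for each gene at 24 h (orange), 1 week (green), 6 weeks (purple) and over their mean (black). The values of 1 week lie closest to 0 for 5 of the 6 genes; values of Ccl2 at each time and of Timp1 at 24 h and 6 weeks depend on the prior count because far tissue held no count.

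Whether the near-far difference itself changed with time was tested by interaction terms of the same edgeR fit. Between 24 h and 1 week 0 of 6 members were called (0% of all genes), and Cd44 had an unadjusted p under 0.05 (a change of -6.83 ± 3.40 in log2 fold, adjusted p = 1), with 0 called by DESeq2 (2.9% of all genes). Between 24 h and 6 weeks 0 of 6 were called (0.0208%), 0 had an unadjusted p under 0.05, and 0 were called by DESeq2 (1.73%). Between 1 week and 6 weeks 0 of 6 were called (0.0278%), and Hspb1 and Cd44 had an unadjusted edgeR p under 0.05 (6.71 ± 3.01 and 7.27 ± 3.61, both with an adjusted p of 1). DESeq2 called 1 member there, where it called 2.81% of all genes. No approximate SE could be formed for Ccl2 in any of these edgeR tests, or for Timp1 between 24 h and 6 weeks. Far tissue held no count of these genes at the times compared. For Lcn2 the SE was 69.9 between 24 h and 6 weeks and 82.4 between 1 week and 6 weeks. In these cases the tests could not show whether the near-far difference changed.

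The level near the probe was then compared between times, with different rats at each. For Ccl2 the near rats of 1 week and of 6 weeks all lay below those of 24 h. It was the 1 member of 6 with groups that did not overlap in this direction. Of 12799 genes, 1.8% at 1 week and 2.87% at 6 weeks were lower in this way. Ccl2 was counted in 1 near rat at each later time, so it passed the low-count filter through the rats of 24 h. It is high in those rats, and the shares of all genes give no support for it. The fitted edgeR log2 changes of Ccl2 were -3.76 ± 2.48 and -5.08 ± 2.85, each with an adjusted p of 1. Near Cd44 changed by -2.22 ± 1.29 from 24 h to 1 week and by -2.63 ± 1.40 to 6 weeks in the same fit, also with an adjusted p of 1. Neither edgeR nor DESeq2 called any of the 6 members between near times, and 0 had an unadjusted edgeR p under 0.05. The shares of all genes called were 0.0469%, 0.0234% and 0.00781% by edgeR for 1 week against 24 h, 6 weeks against 24 h and 6 weeks against 1 week, and 1.99%, 2.05% and 1.25% by DESeq2. In far tissue 4 members (Lcn2, Hmox1, Hspb1 and Cd44) passed the low-count filter, and 0 of them were called by edgeR between any pair of times (0% of all genes each), with 0 at an unadjusted p under 0.05 and 0 by DESeq2 (1.51%, 1.69% and 0.993% of all genes).

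Naive cortex held little of the 4 members it lists. At the position matching near tissue, Cd44 had 0.145, 1.04 and 0.0909 CPM in rats n2, n3 and n5. Hmox1 had 2.25 CPM in rat n3 and 0 in the other 2, and Timp1 had 0.823 in n3, 0.0909 in n5 and 0 in n2. Hspb1 reached 16.7 CPM in 1 naive rat (n5) and 2.303 in another (n3). At the 500 µm position Cd44 had 4.18 CPM in n5, and Timp1, Hmox1 and Hspb1 had 0 counts in all 3 rats. The naive libraries have a table and a label series of their own, so in each comparison with naive tissue a batch and the implant cannot be told apart.

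Against this background Cd44, Hmox1 and Timp1 were higher in near tissue of all 3 rats at 24 h than in any naive rat. That is 3 of 4 members without overlap, where 3.6% of 13834 genes were. Naive tissue at this position held 22, 41 and 16 counts of Cd44, Hmox1 and Timp1. They passed the low-count filter through near tissue, where they are high, so the share of all genes gives no support for them. The ratio of means was 345 for Cd44, 144 for Hmox1 and 27.3 for Timp1, and Hspb1 (ratio 5.04) overlapped. For Cd44 and Hmox1 these ratios rest largely on rat 25, which held 75.7% and 81.6% of the near counts. At 1 week and 6 weeks 0 of 4 members were without overlap (0.802% and 1.71% of all genes), since at least 1 rat of each time had no count. edgeR called 0 of 4 members at 24 h, 1 week and 6 weeks, where it called 0.0578%, 0.123% and 0.0434% of all genes. Cd44 had an unadjusted p under 0.05 at each time, with fitted edgeR log2 fold changes of 8.31 ± 1.97, 6.11 ± 1.75 and 5.72 ± 1.73 (adjusted p = 0.0956, 0.214 and 0.927). DESeq2 called Cd44, and no other member, at each of the 3 times, where it called 2.89%, 2.23% and 1.32% of all genes. At 24 h Cd44 was called in 9 of 20 alternatives. Among them were the edgeR fit of these groups alone (adjusted p = 0.0378) and the fit without rat 30 (0.00966). With each rat left out, edgeR called Cd44 in 4 of 15 fits. Without rat 25 its edgeR adjusted p was 0.856. Naive rat n3 was the only one with an Hmox1 count at this position. Without it edgeR called Hmox1 at 24 h (adjusted p = 0.0116) and at 1 week (0.0113). The naive rats that remained held no count of Hmox1, so these calls give no support.

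At 500 µm, implanted and naive rats were compared for the 3 members that passed the low-count filter (Hmox1, Hspb1 and Cd44). Naive rats had 0 counts of Hmox1 and Hspb1 at this position. Far tissue held 139, 463 and 55 counts of Hmox1 at 24 h, 1 week and 6 weeks, of which 71.2% came from rat 25, 37.4% from rat 10 and 67.3% from rat 19. It held 1462, 3677 and 193 counts of Hspb1, of which 99.9% came from rat 25, 92.1% from rat 23 and 100% from rat 17, so no fold against naive tissue is given for these genes. In each of these groups at least 1 far rat had no count, so 0 of 3 members were without overlap (5.1%, 2.42% and 3.54% of all genes were). edgeR called 0 of 3 members at each time (0.00748%, 0.127% and 0.0598% of all genes), with Hmox1 at an unadjusted p under 0.05 at 24 h and 1 week (adjusted p = 0.642 and 0.481). DESeq2 called 1, 2 and 1 of them, where it called 5.09%, 5.81% and 4.93% of all genes. Hmox1 and Hspb1 passed the low-count filter through far tissue alone. With no naive count they could only come out higher, so the shares of all genes give no support for them. None of the 6 members passed the filter for naive 100 µm against 500 µm tissue.

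**Figure D4:**
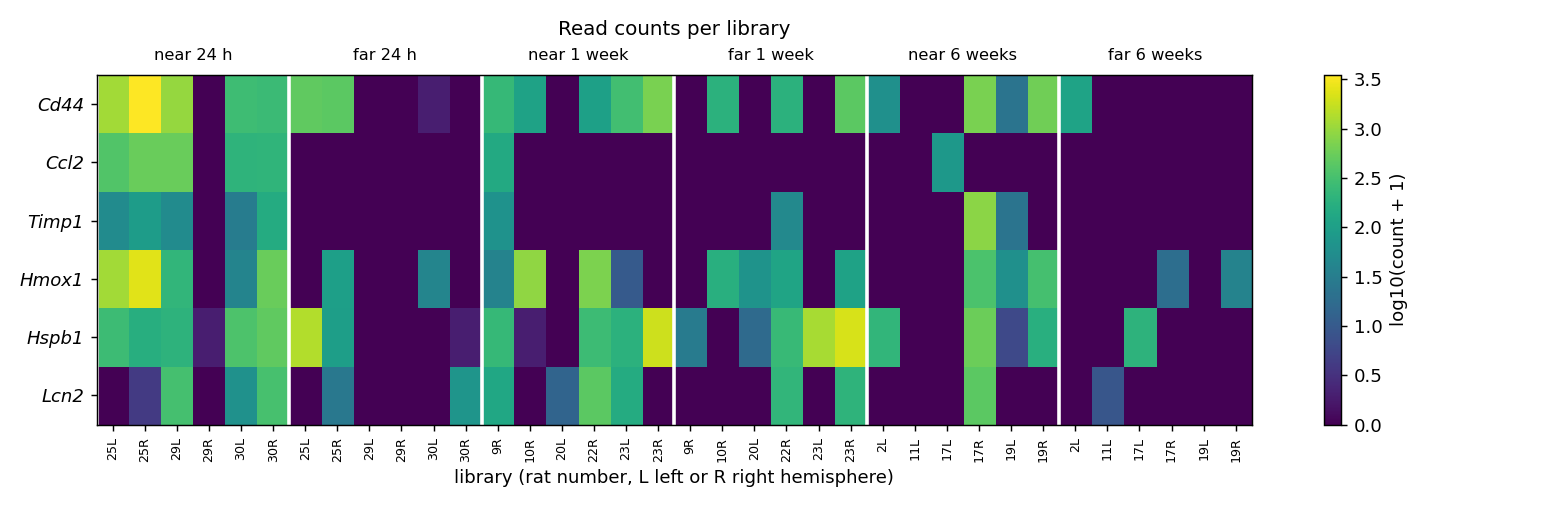
Read counts of the 6 genes in the 36 implanted libraries, as log10(count + 1) in colour, with rows for genes and columns for libraries named by rat and hemisphere. Dark cells are counts of 0, which fill all far columns of Ccl2 and take 72.2% of the far cells over all 6 genes.

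Counts of the members were either absent or well above 1 in most libraries. Of 216 values (6 genes in 36 libraries), 121 were 0 (56.0%), 8 lay between 1 and 9 and 87 were 10 or more. Zeros made up 39.8% of near values and 72.2% of far values. Per member, between 33.3% (Hspb1) and 80.6% (Ccl2) of libraries were at 0, beside a median of 30.6% over the 7186 genes with a mean library CPM in the members' range. In the 6 rats with a probe on each side, 36 pairs of near values compared the hemispheres: both sides held the gene in 17, 1 side in 15 and neither in 4. In far tissue these numbers were 3, 12 and 21.

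The hemispheres of rat 17 at 6 weeks show this split. Its left near library held 77 counts of Ccl2 and none of the other 5 members, and its right near library held 856 counts of Timp1, 444 of Lcn2, 676 of Cd44, 343 of Hmox1 and 568 of Hspb1 and none of Ccl2. Counted by implant, near tissue held Hspb1 at 15 of 18 implants, Cd44 at 14, Hmox1 at 12, Lcn2 at 9, Timp1 at 8 and Ccl2 at 7. Far tissue held them at 9, 7, 8, 5, 1 and 0 implants. Implants of 1 rat share the animal and are not independent. At 24 h Ccl2, Timp1, Cd44 and Hmox1 were each counted in 5 of 6 near libraries, and the library without them was that of rat 29 in which 3062 genes were detected.

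Over the 24 sums per rat and distance, Pearson correlations of log2 CPM between members ran from 0.37 (Hspb1 and Ccl2) to 0.81 (Timp1 and Ccl2). These describe the libraries, which share depth, distance and many zeros. No gene of like pattern is named, since 0 of 6 members reached the mean log2 CPM of 3 that the rule asked for.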

How the data were processed

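Laser-captured rat motor cortex RNA was sequenced from libraries that keep strand, per the labels' protocols. The authors deposited whole-number read counts per gene, which were used unchanged. The submitters' processing notes list the aligner STAR 2.6.1b, the quantifier RSEM 1.3.1, the trimmer cutadapt 2.3 and the build Rnor_6.0, without their settings. No source used here says whether the authors rounded or filtered the counts. Implanted rats (17317 genes) and naive rats (17616) lie in separate tables, compared over the 15936 shared genes.

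Counts were summed per rat and distance. The sums were tested in R 4.3.3 with edgeR 4.0.16, using filterByExpr, TMM scaling and robust quasi-likelihood fits, with p-values adjusted by Benjamini-Hochberg over 11839 to 14399 genes. All near and far sums shared a fit with the rat as a block; comparisons between times or with naive rats had no block. An approximate SE is the log2 fold change over the square root of F, and does not give the spread between rats. Alternatives were DESeq2 1.42.0, its size factors within edgeR, no low-count filter, no block, the compared groups alone, each rat left out, and no libraries under 6000 detected genes. The labels pair near and far tissue by rat. Across genes, a rat's deviations from the group means at both distances correlated at 0.00566 to 0.0883, above 0.1 in 0 of 12 rats. In 9 of 12 rats the near deviations correlated best with the rat's own far deviations, among far tissue of the same time.

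The 6 members, all of which are described, and the other lists, tests and alternatives were chosen with earlier results of these data known. The Ensembl IDs matched no symbol of the reference tables, so the lists of related genes and of cell type markers were not analysed here. Over 120 pairs of libraries within groups, chi-square per degree of freedom was at least 55.0, so none looked like a repeat deposit.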

Additional observations from a re-analysis of the deposited data

Results flagged for a closer look

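In 12 of 21 sets of 4 or 5 rats, 1 rat stood far from the others by Dixon's gap test at the 95% level. In 8 of these sets every other rat was at 0, so the gap equals the range whatever the value. The share of about 1 set in 20 that chance gives for continuous values does not apply to sets with so many zeros. At 1 week near tissue, rat 9 stood apart for Ccl2 (17.7 CPM) and Timp1 (8.09 CPM), rat 22 for Lcn2 (68.0 CPM) and rat 23 for Hspb1 (166 CPM). In far tissue of that time, rat 22 stood apart for Timp1 (7.29 CPM) and rat 23 for Hspb1 (231 CPM). In near tissue at 6 weeks, rat 17 stood apart for Ccl2 (4.92 CPM), Timp1 (54.7 CPM) and Lcn2 (28.3 CPM). In far tissue at 6 weeks, the lone values were those of rat 2 for Cd44 (15.2 CPM), rat 17 for Hspb1 (11.4 CPM) and rat 11 for Lcn2 (0.972 CPM).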

How the results depend on the processing

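DESeq2's Wald test called more of the members than edgeR: 3 for near against far at 24 h, 1 at 6 weeks, 3 over the mean of the 3 times, 1 for the change of the near-far difference from 1 week to 6 weeks, 1 for near against naive tissue at each time, and 1, 2 and 1 for far against naive tissue at 24 h, 1 week and 6 weeks. Without a low-count filter edgeR called 2 over the mean of the 3 times and 1 for near against naive tissue at 24 h and at 1 week. Leaving out the libraries of fewer than 6000 genes also removed near tissue of rat 20. In that setting edgeR called 1 for near against far at 24 h and 3 over the mean of the 3 times. It also called 1 for near against naive tissue at 24 h. For that last comparison it also called 1 with DESeq2 size factors and 1 with the groups compared alone. Leaving out each rat moved the number of members called between 0 and 3 over the mean of the 3 times, between 0 and 1 for near against far at 6 weeks, between 0 and 2 for near against naive tissue at 24 h and between 0 and 1 at 1 week. Without the replicate block the count over the mean of the 3 times was again 1, but Ccl2 (adjusted p = 0.0226, edgeR) in place of Cd44. With no far count Ccl2 could only come out higher near the probe, so its call gives no support. The cause of these changes was not tested.

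Near against far at 1 week, Hspb1 turned to -0.18 without the replicate block. With each rat left out, fitted log2 fold changes that changed sign ranged from -0.68 to 2.49 for Hmox1, -0.56 to 1.16 for Hspb1 and -3.26 to 2.95 for Timp1 at 1 week, from -0.14 to 6.05 for Lcn2 at 24 h and -2.70 to 5.73 for Lcn2 at 6 weeks, and from -4.75 to 4.83 for Timp1 near the probe at 1 week against naive tissue. Over all genes, near against far at 24 h had 19 calls by edgeR, 529 by DESeq2 and 0 without the block; over the mean of the 3 times these were 217, 1172 and 91. Counts of 0, in 72.2% of the far values, limit the near-far comparisons, and 3 to 5 rats a time limit the tests.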
